A study of Mus musculus with 24 samples.

Results

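The genes of the cytosolic ribosomal proteins were taken from the array by symbol, as all genes named Rps or Rpl with a number and at most 1 letter after it, together with Rplp0, Rplp1 and Rplp2. The rule used no measured value. It found 58 genes with 75 of the 25697 probes, 25 genes of the small subunit (Rps) and 33 of the large subunit (Rpl, Rplp). A gene was tested when 1 of its probes had a detection p-value below 0.05 on at least 3 of the 24 arrays, and 57 of the 58 passed, 25 of the small and 32 of the large subunit. Rplp2, a protein of the acidic stalk, did not pass, since its probe was detected on 2 arrays, 1 of null and 1 of WT luminal cells, at raw intensities of 83.0 to 127.1 over all 24 arrays. Of the 57 genes, 53 were detected on all 24 arrays. The others were Rps15a with 22 arrays, Rpl6 with 16, Rpl39l with 9 and Rpl3l with 4.

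Illumina bead arrays were hybridised with total RNA of mammary cells from female mice. Mice were either homozygous for a LacZ allele of Snai2 (SNAI2 LacZ/LacZ, called null) or SNAI2+/+ (called WT), and the Snai2 product Slug represses transcription as one of the Snail factors. Basal, luminal and stromal cells were separated by flow sorting on CD49f and Epcam, and unsorted cells were measured beside them. The 8 groups were null basal, WT basal, null luminal, WT luminal, null stromal, WT stromal, null unsorted and WT unsorted cells, each with 3 arrays. No label gives an age or strain, and no other allele or treatment is named. Whether the 3 samples of a group were separate animals is not stated, so a p-value here covers the spread between samples alone, and that spread may be technical. In such bulk samples, fewer cells of a type and less RNA per cell cannot be told apart.

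A ribosome joins a small subunit, which reads the message, to a large subunit, which forms the peptide bond, and its proteins are made in matched amounts and assembled on ribosomal RNA in the nucleolus. Many of their messages begin with a C followed by a run of pyrimidines, the terminal oligopyrimidine tract through which mTOR and Larp1 control their translation. A few ribosomal proteins have paralogs that replace them in particular tissues, such as Rpl39l for Rpl39 and Rpl3l for Rpl3. In the mammary gland, luminal cells make milk protein, basal cells contract around them, and the stroma holds fibroblasts, fat, vessels and immune cells.

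Snai2 and Epcam had 0 probes on the array, so neither the deleted gene nor that sort marker checked the labels. Median raw intensity lay between 93.58 and 143.71 per array, and 12634 to 15825 probes were detected per array. The sorted populations carried their markers by summed level, though not every single marker set them apart. The summed level of 7 basal markers was 19700 to 22800 in null basal and 18400 to 20500 in WT basal arrays, and at most 5210 in luminal and 3210 in stromal arrays. The sum of 6 fibroblast markers was at most 3540 in luminal arrays, against 17800 to 19200 in null stromal and 14900 to 18700 in WT stromal arrays. The third principal component of all genes (9.65% of the variance) divided the arrays by replicate number, differently in each genotype. Its positive side held replicates 1 and 2 of all 4 WT populations and replicate 1 of the 3 sorted null populations, 11 arrays, and its negative side the other 13. Within a side, each sorted null group thus had 1 array on the positive and 2 on the negative side, and each sorted WT group 2 and 1. Results that touch this division are given within each side, and its origin was not tested.

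RefSeq promoters (GRCm38.p6, 250 bases before to 50 bases from the start) were found for 47 of the 58 genes. A C at the annotated start followed by 4 pyrimidines was present in 19.1% of the 47 genes, against 3.01% of all 27025 genes with a promoter. The motif CCGGAAG, the core read by GABP and other ETS factors, was present on either strand in 44.7% of the 47 genes, against 9.93% of all genes. GGGCGG, the GC box read by Sp1, was present in 63.8% of the 47 genes and 38.2% of all genes, and TCGCGA, a palindrome, in 21.3% and 2.86%. TATAAA was found in 10.6% of the 47 genes and 15.7% of all genes, CACGTG, the E-box read by Myc, in 12.8% and 8.09%, and AAGATGG, the core read by YY1, in 14.9% and 7.28%. The oligopyrimidine start was read on the transcribed strand only, and the other motifs on both strands. Each was counted on its own, so that a base could belong to more than 1 match. These matches describe the letters of the window and not binding. Stretches of 110 bases before to 10 bases from the start are printed for 4 genes that the results below turn on: Rpl39l, called lower in luminal than stromal cells of both genotypes, its partner Rpl39, Rps10, called higher in luminal than stromal cells of both genotypes, and Rps19, called higher in WT basal and in WT luminal than in WT stromal cells. Capitals mark a match to 1 of the motifs on either strand, or the first 5 transcribed bases where they are a C and 4 pyrimidines.
Rpl39l, chr16:10170118-10170237, plus strand: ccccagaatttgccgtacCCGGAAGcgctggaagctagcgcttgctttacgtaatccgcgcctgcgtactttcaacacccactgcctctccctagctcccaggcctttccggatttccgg
Rpl39, chrX:37085213-37085332, minus strand: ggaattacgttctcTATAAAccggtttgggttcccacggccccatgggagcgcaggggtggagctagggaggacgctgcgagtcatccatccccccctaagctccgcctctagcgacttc
Rps10, chr17:27635235-27635354, minus strand: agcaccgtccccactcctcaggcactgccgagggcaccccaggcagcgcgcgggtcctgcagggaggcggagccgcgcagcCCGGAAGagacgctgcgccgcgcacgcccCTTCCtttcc
Rps19, chr7:24884482-24884601, plus strand: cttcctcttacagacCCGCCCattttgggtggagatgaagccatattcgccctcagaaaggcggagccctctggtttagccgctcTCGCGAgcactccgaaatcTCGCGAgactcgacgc
The stretch of Rps10 joins an ETS motif to an oligopyrimidine start. That of Rps19, for the first of its 3 annotated starts, holds the palindrome at 2 places near the start. Rpl39 and Rpl39l share CCGGAAG in their full windows, where Rpl39 has it outside the printed stretch, and Rpl39 alone of the pair has TATAAA.

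As a group, ribosomal protein genes had their highest mean level in luminal and their lowest in stromal cells, except that scaling on array medians put WT unsorted cells lowest, and no gene passed the test between null and WT cells. The measure was the mean, over the 57 genes, of each gene's log2 intensity relative to its own mean over the 24 arrays. It was 0.06 ± 0.07 in null basal and -0.02 ± 0.10 in WT basal cells (SD, n = 3 each, as for all groups). Luminal cells had 0.15 ± 0.04 in null and 0.12 ± 0.06 in WT mice. Stromal cells had -0.10 ± 0.13 in null and -0.24 ± 0.18 in WT mice, and unsorted cells 0.07 ± 0.05 and -0.03 ± 0.01. All 6 luminal arrays lay above 0 and all 6 stromal arrays below it. The spread among stromal arrays was wide, with -0.25, -0.02 and -0.03 in null and -0.27, -0.41 and -0.05 in WT cells. The second WT stromal array had the lowest of the 24 values for 30 of the 57 genes.

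The mean of the small subunit lay further below 0 than that of the large one in stromal cells. Its mean relative level was -0.15 ± 0.17 in null stromal and -0.34 ± 0.27 in WT stromal cells, where the large subunit had -0.06 ± 0.10 and -0.16 ± 0.13. In luminal cells both subunits were above 0, at 0.16 ± 0.05 (small) and 0.15 ± 0.03 (large) in null cells and 0.07 ± 0.09 and 0.15 ± 0.04 in WT cells. Basal cells set the subunits apart, with 0.12 ± 0.11 (small) and 0.01 ± 0.04 (large) in null cells and 0.05 ± 0.10 and -0.08 ± 0.11 in WT cells. By array, the stromal levels (small, then large) were -0.34 and -0.18, -0.05 and 0, and -0.04 and -0.01 in null cells. In WT cells they were -0.3 and -0.25, -0.64 and -0.23, and -0.09 and -0.01. The gap thus lay mostly in the first null and the second WT array. Dim genes enter both means, Rpl39l and Rpl3l the large and Rps15a the small, with higher levels in stromal than luminal cells. The means were not taken without them. These gaps between subunits were not tested.

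**Figure D1:**
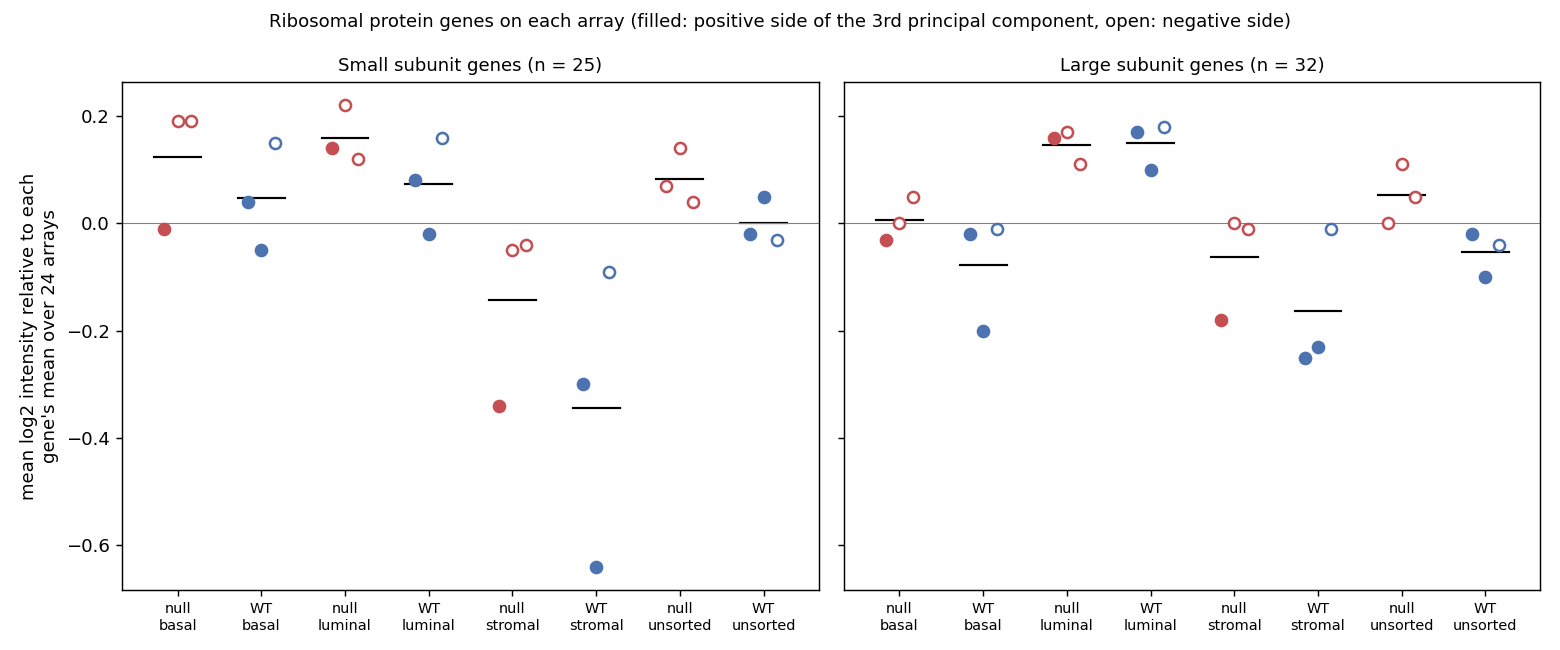
Mean relative log2 intensity of the small subunit (left, 25 genes) and large subunit (right, 32 genes) on each array, by group, with a black line at the group mean. Red points are null and blue points WT arrays, filled on the positive and open on the negative side of the third principal component. The lowest point is the second WT stromal array, and the luminal means are the highest for the large subunit.

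The order of the sorted populations was shared by most genes. The mean was highest in luminal, then basal, then stromal cells for 36 of the 57 genes in null and 40 of 57 in WT mice. The next most frequent order, basal above luminal above stromal, held for 13 genes in null and 9 in WT mice. Over all 8 groups, the lowest mean fell in WT stromal cells for 40 genes, and the highest in null luminal cells for 25 genes and WT luminal cells for 17.

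The comparison of luminal with stromal cells asks what separates secretory epithelium from its supporting tissue. In WT mice, 16 of the 57 genes were higher in luminal than in stromal cells and 1, Rpl39l, was lower (limma, Benjamini-Hochberg over 12552 genes, threshold 0.05). The higher genes were 28.1% of the 57, against 12.4% of all genes tested, where 12.2% were lower and 24.6% changed in either direction. The 16 were 9 genes of the small subunit, among them Rps6, Rps9, Rps10, Rps14, Rps15, Rps19, Rps26 and Rps27l, and 7 of the large (Rpl4, Rpl9, Rpl12, Rpl13a, Rpl18, Rpl22 and Rpl27). The log2 change was positive for 53 of the 57 genes, with a median of 0.41, against a median of 0.07 over all genes. In null mice, 7 genes were higher, among them Rpl3, Rpl9, Rpl13a, Rpl19, Rps10 and Rps26, and again Rpl39l was lower. The higher genes were 12.3% of the 57, a share near the 12.8% of all genes that were higher, with 12.7% lower and 25.5% in either direction. The log2 change was positive for 51 of the 57 genes, with a median of 0.29 against 0.09 over all genes.

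These counts depended on few arrays and on the scaling. Without the second WT stromal array 4 genes were called in WT mice, without the first or the third WT luminal array 5, without the first WT stromal array 10, and without the third WT stromal array 25. In null mice 3 were called without the first null stromal array and 4 without the second null luminal array. With arrays scaled on their medians in place of quantiles, 1 gene, Rpl39l, was called in WT and 2 in null mice, while 52 and 51 of the 57 changes stayed positive, with medians of 0.27 in WT and 0.39 in null mice. The replicate numbers were taken to pair the WT populations, though that pairing is not settled. With the number as a block, 22 genes were called in WT mice, 16 of the 17 among them, against 28.8% of all genes. The gap in mean relative level between luminal and stromal cells was 0.42 on the positive and 0.19 on the negative side of the third principal component. Summed endothelial markers were 135 to 188 in null luminal and 151 to 199 in WT luminal arrays, against 390 to 484 in null stromal and 298 to 569 in WT stromal arrays. Of these 4 markers 2 were detected in luminal cells and 3 in stromal cells of each genotype. Tek carried the difference, with log2 means of 4.69 in null luminal, 5.46 in WT luminal, 8.28 in null stromal and 8.21 in WT stromal cells. Pecam1 had 6.44, 6.45, 6.31 and 6.49 in the same order. Cdh5 and Kdr lay between 4.51 and 4.98 in these groups. Summed adipocyte markers were 458 to 844 in null luminal and 519 to 1170 in WT luminal arrays, against 1160 to 1710 in null stromal and 1300 to 1790 in WT stromal arrays. Leukocyte markers summed to 154 to 329 in null luminal and 188 to 226 in WT luminal arrays, against 276 to 750 in null stromal and 176 to 494 in WT stromal arrays. Of 3 measured adipocyte markers 2 were detected in luminal cells, 3 in null stromal and 2 in WT stromal cells. Fabp4 was the brightest of them, with log2 means of 9.04 in null luminal, 9.6 in WT luminal, 10.19 in null stromal and 10.48 in WT stromal cells. Of 5 leukocyte markers 4 were detected in luminal cells, 5 in null stromal and 4 in WT stromal cells. The part of these other cells in the result was not tested.

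Rpl22, an RNA-binding protein of the large subunit that mouse cells can replace by its paralog Rpl22l1, had the largest increase. Its log2 intensity was 9.33, 8.98 and 9.22 in WT luminal arrays, against 8.08, 8.50 and 7.78 in WT stromal arrays. The groups did not overlap, and the log2 change was 1.06 ± 0.27 (SE), 2.08-fold, with an adjusted p of 0.00548 in limma. In null mice it had 8.81, 8.79 and 9.27 in luminal arrays, against 8.63, 8.50 and 8.24 in stromal arrays, which did not overlap either, but the difference did not pass the test. The paralog Rpl22l1, outside the rule, had log2 changes of 0.19 ± 0.21 in null and 0.07 ± 0.21 in WT mice.

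Rps6, the small subunit protein phosphorylated by the S6 kinases below mTOR, had 10.02, 9.67 and 9.96 in WT luminal arrays, against 9.32, 7.97 and 9.53 in WT stromal arrays. The groups did not overlap, the second stromal array lay far below the others, and the log2 change was 0.95 ± 0.30 (limma adjusted p = 0.0251). Rpl18 showed the same low array and no overlap, with 10.65, 10.57 and 10.85 in WT luminal and 10.20, 9.19 and 10.42 in WT stromal arrays, and a log2 change of 0.75 ± 0.24 (adjusted p = 0.0262). Rpl27 had 12.09, 11.60 and 11.97 in WT luminal and 11.30, 10.72 and 11.64 in WT stromal arrays, with the groups overlapping and a log2 change of 0.67 ± 0.21 (adjusted p = 0.0259). Rpl18 and Rpl27 are structural proteins of the large subunit.

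Rpl4, a large subunit protein that reaches into the exit tunnel, had 8.84, 8.48 and 8.06 in WT luminal arrays, against 7.99, 7.60 and 7.54 in WT stromal arrays. The groups did not overlap, and the log2 change was 0.75 ± 0.25 (limma adjusted p = 0.0308). A second probe of Rpl4 gave 0.51 ± 0.25 and did not pass (adjusted p = 0.153). Rps27l, a paralog of Rps27 that p53 induces, had 11.10, 10.81 and 11.00 in WT luminal arrays, against 10.26, 10.25 and 10.64 in WT stromal arrays. The groups did not overlap, and the log2 change was 0.58 ± 0.17 (adjusted p = 0.0159).

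Genes called higher in both genotypes included Rpl9, Rpl13a, Rps10 and Rps26. Their changes were 0.44 ± 0.14, 0.63 ± 0.20, 0.48 ± 0.15 and 0.40 ± 0.14 in null mice, in that order. In WT mice they were 0.46 ± 0.14, 0.58 ± 0.20, 0.47 ± 0.15 and 0.42 ± 0.14, each within 1 SE of the null value.

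Rps26, which lies where the message leaves the small subunit and is mutated in human Diamond-Blackfan anaemia, had 11.29, 11.22 and 11.31 in null luminal and 10.77, 10.97 and 10.88 in null stromal arrays. In WT mice it had 11.17, 11.24 and 11.30 in luminal and 10.79, 10.83 and 10.81 in stromal arrays. All 6 luminal arrays lay above all 6 stromal arrays.

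Rpl9, a large subunit protein, had 10.94, 10.99 and 11.01 in null luminal and 10.44, 10.56 and 10.62 in null stromal arrays. In WT mice it had 10.92, 10.94 and 10.99 in luminal and 10.46, 10.39 and 10.62 in stromal arrays. The populations did not overlap in either genotype. Rpl13a, which in human monocytes leaves the ribosome after interferon-gamma to silence inflammatory messages, had 8.66, 8.92 and 9.20 in null luminal and 8.24, 8.22 and 8.42 in null stromal arrays. In WT mice it had 8.79, 8.57 and 9.09 in luminal and 8.25, 8.29 and 8.18 in stromal arrays. Rps10, whose oligopyrimidine start is printed above, had 10.60, 10.70 and 10.69 in null luminal and 10.07, 10.32 and 10.18 in null stromal arrays, and 10.70, 10.32 and 10.66 in WT luminal and 10.12, 9.94 and 10.22 in WT stromal arrays. Neither Rpl13a nor Rps10 had a luminal array that overlapped a stromal array of its genotype.

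Rpl3, which reaches towards the site of peptide bond formation, had 12.20, 11.90 and 11.93 in null luminal arrays, against 11.52, 11.53 and 11.41 in null stromal arrays. Its log2 change was 0.52 ± 0.15 (limma adjusted p = 0.0123) in null mice and 0.40 ± 0.15 (adjusted p = 0.0547) in WT mice. Rpl19, another large subunit protein, had 11.97, 11.56 and 11.74 in null luminal and 11.17, 11.39 and 11.20 in null stromal arrays, with a log2 change of 0.50 ± 0.16 (adjusted p = 0.0228). Neither gene had overlapping groups in null mice.

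Counted by array, all 3 luminal arrays lay above all 3 stromal arrays for 31 of the 57 genes in null mice, against 20.6% of all genes tested. In WT mice 32 of the 57 genes did so, against 19.2% of all genes. Both held for 21 genes, against 12.2% of all genes. The difference between the luminal-over-stromal changes of null and WT mice, a comparison added after the data were seen, called 0 of the 57 genes in limma, with 0 at an unadjusted p below 0.05, against 0.00797% and 2.86% of all genes. A larger change in WT mice was therefore not shown, though more genes were called there.

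**Figure D2:**
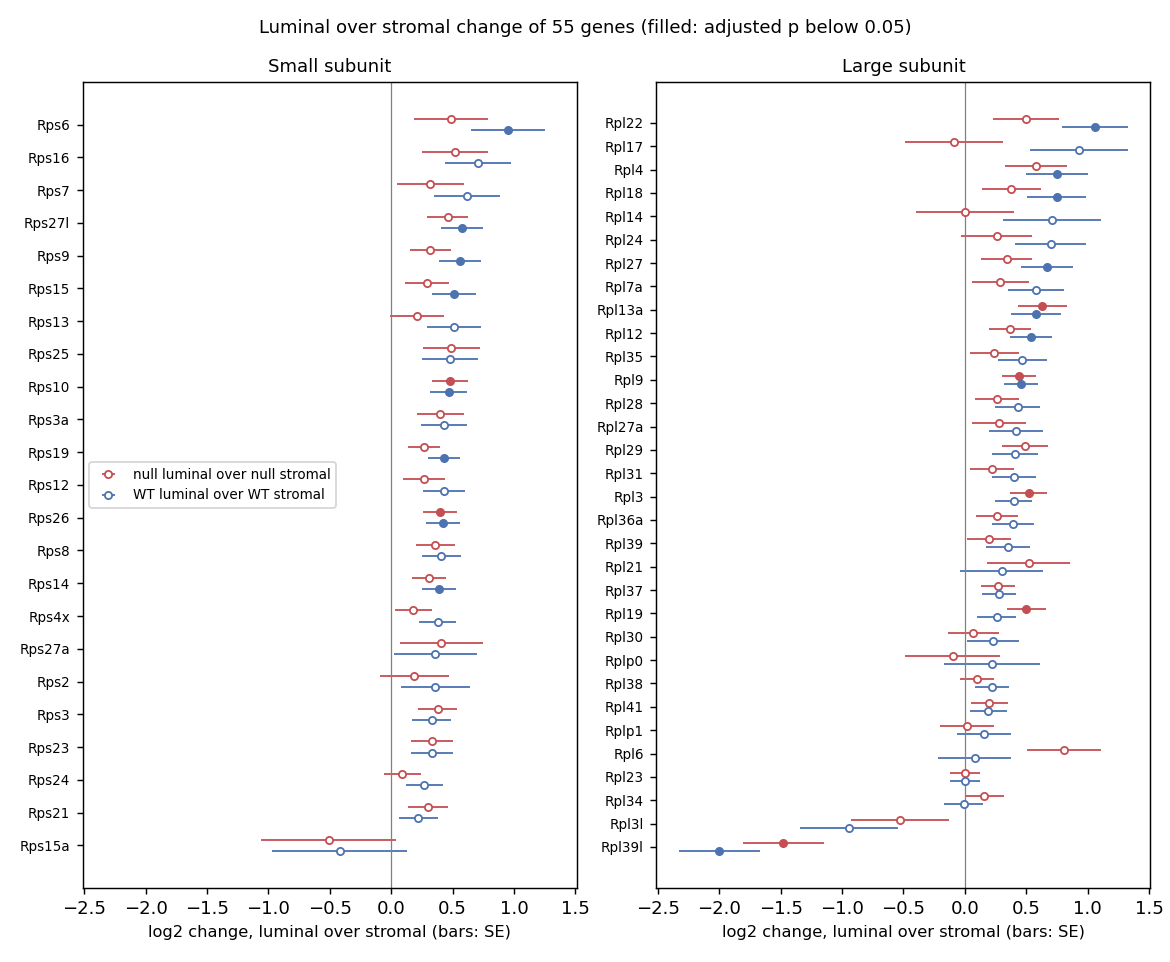
Log2 change of 55 of the 57 genes between luminal and stromal cells with its SE, in null (red) and WT (blue) mice, for the small subunit (left) and the large subunit (right), ordered by the WT change. Filled points passed an adjusted p of 0.05. Of the 55 genes, 48 in null and 50 in WT mice lie right of 0 by more than rounding to 2 decimals, and Rpl39l, Rpl3l and Rps15a lie left of it in both.

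Rpl39l, the paralog of Rpl39 known in mouse male germ cells, was 1 of 3 genes, with Rpl3l and Rps15a, whose luminal over stromal change was negative in both genotypes, and the 1 of them that was called. Its log2 intensity in luminal cells was 4.59, 4.38 and 4.47 in null and 4.49, 4.54 and 4.49 in WT arrays. In basal cells it was 4.40, 4.49 and 4.46 in null and 4.40, 4.40 and 4.44 in WT arrays. In stromal cells, where all 6 arrays detected it, it was 5.90, 6.24 and 5.74 in null and 5.33, 6.99 and 7.19 in WT arrays. None of the basal and luminal arrays reached detection, so the gene passed the detection filter only through stromal and unsorted arrays and each change is a bound, the stromal mean set against the dimmer group's floor.

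Rpl39l was at least 2.1-fold lower in null luminal than null stromal cells (limma adjusted p = 0.00189) and at least 3.14-fold lower in WT luminal than WT stromal cells (adjusted p = 0.000104). It was at least 2.01-fold lower in null basal than null stromal cells (adjusted p = 0.0018) and at least 3.02-fold lower in WT basal than WT stromal cells (adjusted p = 8.54e-05). Unsorted cells lay between, with 4.41, 4.50 and 4.98 in null and 4.54, 5.07 and 5.43 in WT arrays. A gene that passes a filter through its bright groups is bound to show a difference, so these p-values are no further support for it. With every probe tested, without the detection filter, the adjusted p-values were 0.00353 and 0.000262 for luminal and 0.00348 and 0.000231 for basal cells, null before WT. Without background correction the log2 changes were -0.56 in null luminal and -0.85 in WT luminal cells, and -0.57 in null basal and -0.91 in WT basal cells, all smaller than the bounds, which therefore rest on that correction. The 4 calls were lost with the arrays of the positive side alone, where the null groups have 1 array each, at changes of -1.3, -1.65, -1.5 and -1.76 in the same order, and were kept under the other 15 settings or left-out arrays.

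Rpl39, the small protein of the exit tunnel that Rpl39l replaces, was detected on all 24 arrays. It had 12.16, 12.34 and 12.34 in null luminal arrays, against 11.76, 12.28 and 12.20 in null stromal arrays, and 12.43, 12.18 and 12.34 in WT luminal arrays, against 11.86, 11.90 and 12.16 in WT stromal arrays. Its log2 changes of 0.20 ± 0.18 and 0.35 ± 0.18 had the other sign from those of Rpl39l and did not pass. Rpl3l, the paralog of Rpl3 found in muscle, was detected on 4 arrays, with 5.97, 4.38 and 4.39 in null stromal, 5.24, 6.24 and 4.48 in WT stromal and 5.74, 4.59 and 4.45 in WT unsorted arrays. It was at or below 4.55 on all other arrays, and no comparison called it. A probe can also take up RNA of processed pseudogenes, of which ribosomal protein genes have many. Probe sequences were not used here, and that share was not tested.

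**Figure D3:**
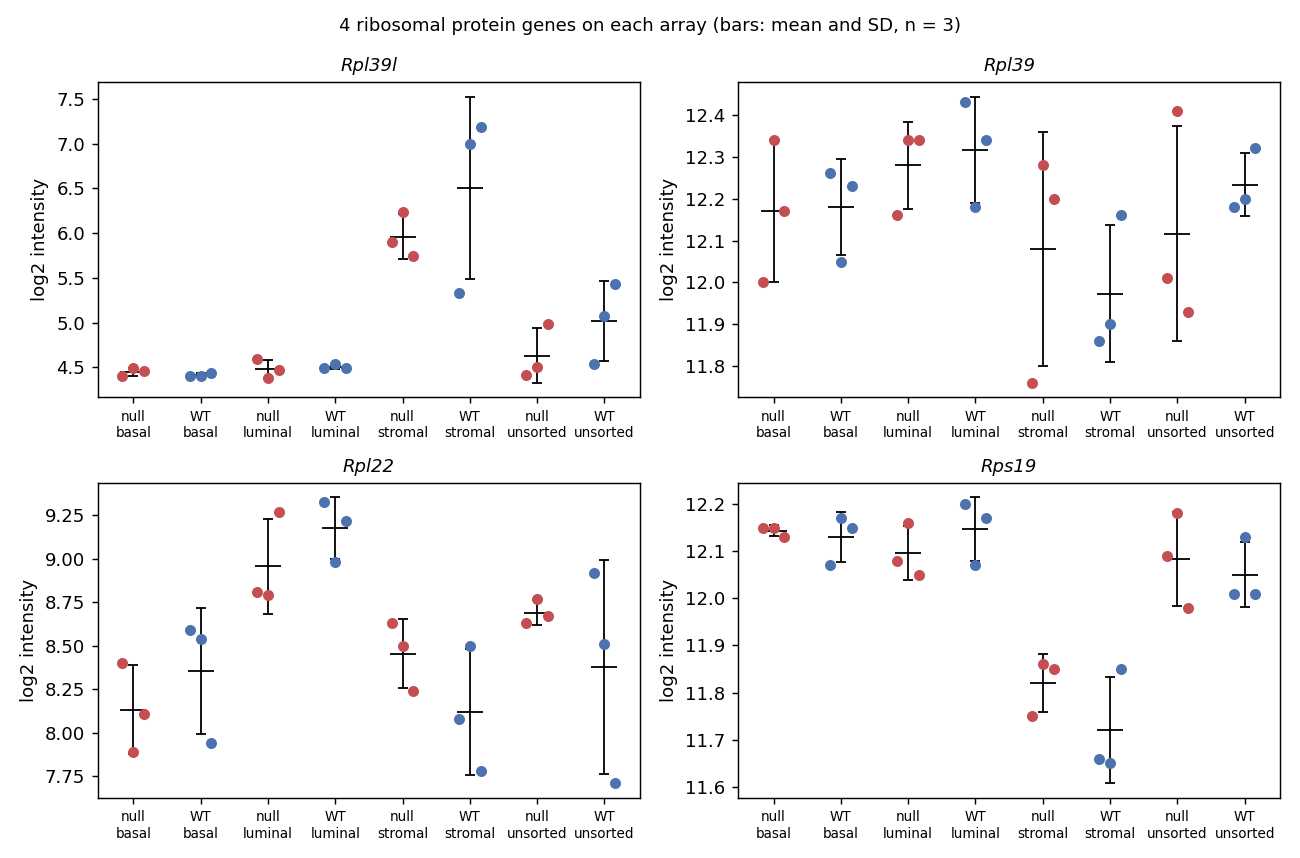
Log2 intensity of Rpl39l, Rpl39, Rpl22 and Rps19 on each array, by group, with the mean and SD (n = 3) in black, null in red and WT in blue. Rpl39l lies at 4.59 or lower in all basal and luminal arrays and at 5.33 or higher in all 6 stromal arrays, while Rps19 is lowest in the stromal arrays.

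Few genes passed the test between basal and luminal cells, the 2 epithelial layers, though most changes were negative. In WT mice 0 genes were higher and 2 lower in basal than in luminal cells, against 7.48% of all genes higher and 7.69% lower, 15.2% in either direction. The log2 change was negative for 47 of the 57 genes, with a median of -0.13 against -0.01 over all genes. In null mice limma called 0 of the 57, against 11.3% of all genes, and 3 had an unadjusted p below 0.05, against 22% of all genes, with a median of -0.09 against -0.02. All 3 basal arrays lay below all 3 luminal arrays for 10 of the 57 genes in null mice, a share near the 15.2% of all genes. In WT mice 18 of the 57 genes did so, a larger share than the 16.3% of all genes.

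The lower genes in WT basal cells were Rpl22 and Rpl27a, a large subunit protein. Rpl22 had 8.59, 8.54 and 7.94 in WT basal arrays, all below the WT luminal values given above, with a log2 change of -0.82 ± 0.27 (limma adjusted p = 0.0423). In null mice it had 8.40, 7.89 and 8.11 in basal arrays, and the change was -0.83, just short of the threshold (adjusted p = 0.0508). Rpl27a had 8.45, 7.96 and 8.10 in WT basal arrays, against 8.84, 9.03 and 8.68 in WT luminal arrays, with no overlap and a log2 change of -0.68 ± 0.22 (adjusted p = 0.0369). Both calls were lost without the second or the third WT basal array and without the first or the second WT luminal array. Without the third WT luminal array Rpl27a alone was kept (adjusted p = 0.0424), and without the third WT basal array 1 other gene was called. Scaling on array medians also lost both calls and took the median change of the 57 genes to -0.23 in null and -0.22 in WT mice, while it was -0.01 without the first null basal array and -0.07 without the second WT basal array.

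Between basal and stromal cells, 1 gene was higher and 1, Rpl39l, lower in WT mice, against 8.52% of all genes higher and 9.63% lower, 18.1% in either direction. The higher gene was Rps19, needed for maturation of the small subunit and the gene most often mutated in human Diamond-Blackfan anaemia. Rps19 had 12.07, 12.17 and 12.15 in WT basal arrays, against 11.66, 11.65 and 11.85 in WT stromal arrays. The groups did not overlap, and the log2 change was 0.41 ± 0.13 (limma adjusted p = 0.0372). In null mice Rps19 had 12.15, 12.15 and 12.13 in basal and 11.75, 11.86 and 11.85 in stromal arrays, which did not overlap either, but 0 genes were called higher and 1, Rpl39l, lower, against 10.5% and 10.9% of all genes, 21.4% in either direction.

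The changes leaned one way without passing the test. They were positive for 49 of 57 genes in each genotype, and for 45 genes in both. The medians were 0.21 in null mice (0.07 over all genes) and 0.29 in WT mice (0.03 over all genes). In WT mice all 25 small subunit genes were positive, with a median of 0.37, and 24 of 32 large subunit genes, with a median of 0.21. Scaling on array medians lowered the medians to 0.11 in null mice, with 46 genes positive, and to 0.08 in WT mice, with 34 positive, and Rps19 to 0.16 in WT mice (adjusted p = 0.718). The median was 0.13 without the first null stromal array and 0.18 without the second WT stromal array. The call of Rps19 was lost under 9 of 16 settings or left-out arrays, with adjusted p-values of 0.00037 to 0.718 over the 16, and without any WT array of the comparison except the third stromal one. With the replicate number as a block 7 genes were called in WT mice, 6 of them higher, against 10.6% of all genes higher. Without the third WT stromal array 14 were called, against 18.1% of all genes, without the first 3, and 1 without the second WT stromal array or without the first or the third WT basal array. In null mice 3 were called without the first null basal array.

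Loss of Snai2 was the study's main question, and no ribosomal protein gene passed the test for it in any population. In basal cells limma called 0 of 57 genes between null and WT, against 0.837% of all genes, and 1 had an unadjusted p below 0.05, against 8.05%. In luminal cells it called 0, against 0.00797% of all genes, and 0 had an unadjusted p below 0.05, against 3.45%. In stromal cells it called 0, against 0.0239%, with 1 at an unadjusted p below 0.05, against 4.45%. In unsorted cells it called 0, against 0.279%, with 1 at an unadjusted p below 0.05, against 11.7%. The median SE of a gene's log2 change between 2 groups was 0.184.

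The changes between null and WT were small and mostly positive. They were counted as above 0 for 45 of 57 genes in basal, 36 in luminal, 44 in stromal and 43 in unsorted cells. Here and above, counts of positive or negative changes can hold Rpl23, whose change of 0 is fixed by the normalization and has no direction. The medians were 0.06, 0.04, 0.12 and 0.08 on the log2 scale, against 0, -0.02, -0.01 and 0.01 over all genes. Scaling on array medians gave 0.15, 0.15, 0.05 and 0.31, against -0.04, 0.02, -0.06 and 0.17 over all genes. Leaving out 1 array gave 0.03 to 0.11 in basal, -0.01 to 0.07 in luminal, 0.04 to 0.19 in stromal and 0.03 to 0.1 in unsorted cells. The lowest value in luminal cells, where the direction turned, was without the second WT luminal array, and the lowest in stromal cells without the second WT stromal array. Null and WT arrays were spread unequally over the third principal component, with 3 of 9 sorted null and 6 of 9 sorted WT arrays on the positive side. With the side as a block the medians were 0.03, 0, 0.09 and 0. Within the negative side alone, with 1 WT array in each population, they were 0.04, -0.02, 0.02 and 0.08. Within the positive side, with 1 null array in each, they were 0.03 in basal, 0.01 in luminal and 0.09 in stromal cells.

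Markers of other cells differed between the genotypes as well. The 6 fibroblast markers, all detected, summed to 1050 to 1450 in null basal and 1890 to 2790 in WT basal arrays, and to 1790 to 2960 in null luminal and 3110 to 3540 in WT luminal arrays. In unsorted cells 5 of 5 measured leukocyte markers were detected in each genotype, with sums of 396 to 1010 in null and 1640 to 1740 in WT arrays. The 8 luminal markers there summed to 12200 to 14400 in null and 7600 to 11300 in WT arrays, but did not all go one way. By mean log2 intensity, null against WT, Krt8 (12.01, 11.26), Krt18 (12.15, 11.46) and Krt19 (10.91, 10.3) were higher, as were Prlr and Esr1. Gata3 (6.54, 6.68), Elf5 (7.47, 7.64) and Csn3 (10.45, 10.65) were lower. None of these ranges of sums overlapped between null and WT. The part of these cells in the small changes above was not tested.

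Rpl17, a large subunit protein at the mouth of the exit tunnel, had the lowest p-value in stromal and unsorted cells. It had 7.68, 8.24 and 7.74 in null stromal arrays, against 5.83, 7.29 and 7.81 in WT stromal arrays, a log2 difference of 0.91 ± 0.40 with an adjusted p of 1 in limma. In unsorted cells it had 8.28, 7.34 and 7.52 in null arrays, against 6.50, 6.22 and 7.64 in WT arrays, a difference of 0.93 ± 0.40 (adjusted p = 0.378). The groups overlapped in both, and 1 or 2 WT arrays lay low. In luminal cells Rpl17 differed by -0.11 ± 0.40.

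The difference between the null effects was tested as well. Between basal and luminal cells limma called 0 of the 57 genes, with 0 at an unadjusted p below 0.05, against 0.167% and 4.32% of all genes. Between basal and stromal cells it called 0, with 1 at an unadjusted p below 0.05, against 0.159% and 5.54% of all genes.

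**Figure D4:**
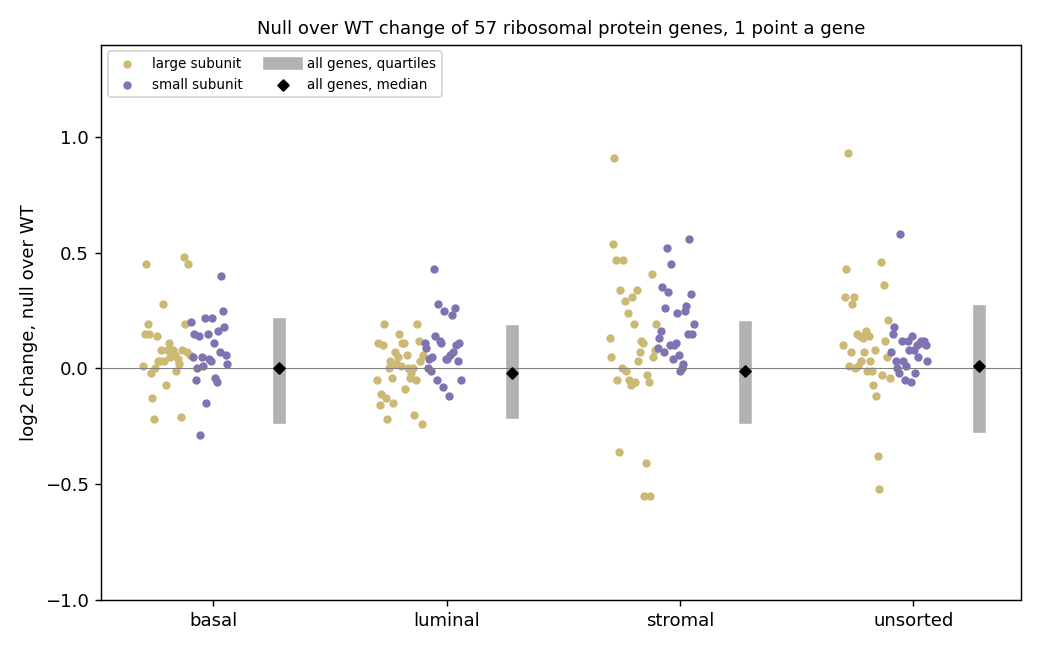
Log2 change between null and WT cells of each of the 57 genes in the 4 populations, with purple points for the small and yellow points for the large subunit. Beside them a grey bar spans the quartiles of all 12552 genes, with their median as a diamond. Most points lie just above 0, and the highest in stromal and unsorted cells, at 0.91 and 0.93, is Rpl17.

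Some genes varied widely and others hardly at all. The range of the 8 group means was largest for Rpl39l (2.09 on the log2 scale), Rps15a (1.21), Rps6 (1.12) and Rpl17 (1.12). Rps15a, a small subunit protein measured by a dim probe, had 4.58, 6.97 and 7.30 in null stromal arrays, and its groups overlapped. Its largest difference between populations, 1.16 ± 0.55 for WT basal over WT luminal, did not pass the test (limma adjusted p = 0.18).

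The smallest ranges belonged to Rpl38 (0.24), a large subunit protein that in mouse embryos is needed to translate Hox messages, and Rpl23 (0). Both have bright probes, with raw intensities of 3924.2 to 7578 for Rpl38. The widely varying genes have dimmer ones, with at most 288.8 for Rpl39l, 277.8 for Rps15a, 543.5 for Rpl17 and 1643.7 for Rps6. The part of probe brightness in these ranges was not tested. Rpl23, which also binds Mdm2, was measured by the brightest of all probes on 24 of 24 arrays, with raw intensities of 10370.4 to 15167.1. Quantile normalization gives the brightest probe the same value on every array, so the range of 0 is set by the method. Its next probe by brightness, which is free of that limit, had a log2 change of 0.24 ± 0.17 for WT luminal over WT stromal cells (limma adjusted p = 0.366).

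Of the stalk proteins, Rplp0, which anchors the stalk, and Rplp1 did not pass the test in any comparison. Their log2 changes for luminal over stromal cells were -0.10 ± 0.39 and 0.02 ± 0.22 in null mice and 0.22 ± 0.39 and 0.16 ± 0.22 in WT mice. A second probe of Rplp0 gave 0.47 ± 0.27 in null and 0.09 ± 0.27 in WT mice. Rps4x, the X-linked form of a small subunit protein, had changes of 0.18 ± 0.15 in null and 0.38 ± 0.15 in WT mice (adjusted p = 0.0726). Rpl36a, a large subunit protein, had 0.26 ± 0.17 in null and 0.39 ± 0.17 in WT mice, and its paralog Rpl36al, outside the rule, was higher in WT luminal than WT stromal cells by 0.84 ± 0.19 (adjusted p = 0.00204), with 0.41 ± 0.19 in null mice (adjusted p = 0.118). For the 11 genes with more than 1 passing probe, no comparison had probes called in opposite directions, but few were called at all. Probes differed in sign for 7 of the 11 genes in null basal over null luminal cells. They did so for 4 in null luminal over null stromal and 1 in WT luminal over WT stromal cells. The largest gaps between probes were 0.75 and 0.91 (both Rpl21) and 0.76 (Rpl23), in that order.

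Other genes of translation were set beside these by lists of their own. Mitochondrial ribosomal proteins, which serve the separate ribosomes of mitochondria, were higher in luminal than stromal cells for 17 of 73 genes in null and 15 of 73 in WT mice, and lower for 0. These shares, 23.3% and 20.5%, stand against the 12.8% and 12.4% of all genes given above. Their median log2 changes were 0.49 in null and 0.54 in WT mice, with Mrpl14 at 1.79 ± 0.39 in null and Mrps18b at 1.26 ± 0.27 in WT cells. In basal over luminal cells 3 were lower in null mice (4.11%, against 5.25% of all genes) and 8 in WT mice (11%, against 7.69%), and 0 were higher, against 6.07% and 7.48% of all genes.

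Translation initiation factors were higher in luminal than stromal cells for 7 of 48 genes in each genotype and lower for 1. The 14.6% higher is near the 12.8% and 12.4% of all genes. The lower gene was Eif1b, a paralog of the start codon factor Eif1, at -1.25 ± 0.22 in null and -1.33 ± 0.22 in WT mice. Among 15 elongation and termination factors, 2 were higher in each genotype (13.3%, also near that share), and Eef1b2, which recharges the elongation factor Eef1a, was called in both, at 0.46 ± 0.17 in null and 0.51 ± 0.17 in WT mice.

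Of 34 genes of ribosome assembly, 2 were called in basal over luminal cells of each genotype, both higher, which is 5.88% against 6.07% of all genes in null and 7.48% in WT mice. Nop58, a core protein of box C/D ribonucleoproteins that guide ribosomal RNA methylation, was higher in basal than luminal cells by 0.87 ± 0.20 in null and 1.13 ± 0.20 in WT mice. It was also lower in luminal than stromal cells, by -0.61 ± 0.20 in null and -0.90 ± 0.20 in WT mice. Ncl, the nucleolar protein nucleolin, was higher in basal than luminal cells by 0.66 ± 0.20 in null and 0.82 ± 0.20 in WT mice.

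Of 21 regulators, 1 was higher and 2 lower in luminal than stromal cells in null mice and 1 was higher and 1 lower in WT mice, shares below those of all genes. Myc, which drives ribosome synthesis, was lower in luminal than stromal cells, by -0.97 ± 0.19 in null and -1.23 ± 0.19 in WT mice. Its mean log2 intensity was 8.20 in null luminal and 9.17 in null stromal cells, while WT luminal cells had 7.96 and WT stromal cells 9.19. Mtor, the kinase above translation of oligopyrimidine messages, was higher in luminal than stromal cells by 0.83 ± 0.29 in null and 1.02 ± 0.29 in WT mice. No gene of these lists was called between null and WT in any population.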

How the data were processed

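The authors deposited linear probe intensity without normalization and, beside each, a detection p-value, per the file headers. The deposited second table of intensity, with array medians of 111.79 to 112.03, differed from a quantile normalization of the first by at most 0.0718 (log2) and had the same probe order, so it was read as uncentred linear values and used only as an alternative. Scanner software is not given in the sources used here. Here, background was removed by normexp from the detection p-values (offset 16), followed by quantile normalization and log2 (limma 3.58.1, R 4.3.3). Probes detected at p below 0.05 on at least 3 of 24 arrays were kept (17878), with the probe of the highest mean per gene, giving 12552 genes. Symbols were brought up to date through RefSeq (20733 current, 3872 updated, 1060 kept, 32 unnamed and left out). All 24 arrays were fitted with 8 group means (lmFit, eBayes, Benjamini-Hochberg, two-sided), and the fit was tested on simulated data. The number of arrays limits the precision.

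Where a probe was detected on no array of the dimmer group, only a bound is given (at least so many fold): the mean of the bright group is set against a floor, which on each array is the lowest detected signal or, if higher, the value of the dim probe. Same-numbered WT arrays deviated together (18 of 18 correlations above 0.1, 0.18 to 0.5), and the numbers were taken to pair the WT populations. In each WT population, replicates 1 and 2 also lie on the positive side of the third principal component and replicate 3 on the negative. Correlations between different numbers were not taken, so these values cannot tell pairing from that division. Fewer correlations were above 0.1 among null populations (6 of 18) and between null and WT (7 of 12). Null pairs with unsorted arrays gave -0.09 to 0.07, and the unsorted null arrays all lie on the negative side. Pairing in null cells is therefore not settled either. The members, lists and rule for named genes were chosen with earlier results of these data known. The rule names, per comparison, up to 6 called genes in each direction, the 4 genes with the largest and 2 with the smallest range of group means, paralogs, and up to 3 called genes of each other list. Rps26 and the other called genes listed by name, and Rpl17 in the genotype comparison, were named after their values were seen where the rule does not reach them. Values of single genes that the text or the plot of luminal over stromal changes leaves out are not reported here. Alternatives were other background, scaling, filter, probe and array choices, the replicate number or the side of the third principal component as a block, each side alone, and leaving out each array.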

Additional observations from a re-analysis of the deposited data

How the results depend on the processing

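None of the called changes named by the rule turned its direction. Changes that were not called are not covered by that check. The counts for null over WT, and for the differences between null effects, were 0 under every alternative that gave a value. They were also 0 without each array in turn. Median changes over the ribosomal protein genes did turn. For null over WT in luminal cells it was -0.02 on the negative side and -0.01 without the second WT luminal array, against 0.04. For the null effect in basal minus stromal cells it was 0.08 under median scaling, 0.03 on the negative side and 0.04 without the second WT stromal array, against -0.09. For basal minus luminal cells it was -0.01 on the positive side, against 0.04. For luminal minus stromal cells it was 0.09 under median scaling and 0.01 without the second WT stromal array, against -0.13. Other counts, higher and lower genes together, moved. Without background correction they were 1 (null basal over null luminal), 6 (null basal over null stromal), 16 (null luminal over null stromal), 5 (WT basal over WT luminal), 8 (WT basal over WT stromal) and 28 (WT luminal over WT stromal). The second deposited table gave 1, 6, 16, 8 and 27 for the same comparisons without WT basal over WT luminal. Without the detection filter the counts were 6 in null basal over null stromal, 15 in null luminal over null stromal and 7 in WT basal over WT stromal. Median scaling gave 2 in null luminal over null stromal, 0 in WT basal over WT luminal, 1 in WT basal over WT stromal and 1 in WT luminal over WT stromal. Under it the lowest group of the mean relative level was WT unsorted cells, with a range of 0.46 between groups against 0.4, and the median of all genes for null over WT in unsorted cells shifted to 0.17, with 0.31 for the ribosomal protein genes. A fit of only the arrays compared gave 1 in null luminal over null stromal, 0 in WT basal over WT luminal, 1 in WT basal over WT stromal and 2 in WT luminal over WT stromal. Among genes detected on all arrays, an alternative chosen after seeing the data, 0 were called in null basal over null stromal and 1 in WT basal over WT stromal, as Rpl39l is not among them.

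With the replicate block, 1 gene was called in null basal over null luminal, 2 in null basal over null stromal and 7 in WT basal over WT stromal. The pairing by number is not settled in either genotype, so the block may join unrelated samples. With the side of the third principal component as a block, 1, 3 and 8 were called in these comparisons. The negative side alone gave 1 in null basal over null luminal, 2 in null basal over null stromal, 1 in null luminal over null stromal, 0 in WT basal over WT luminal, 1 in WT basal over WT stromal and 2 in WT luminal over WT stromal. The positive side alone gave 0, 0, 0 and 0 in null basal over null stromal, null luminal over null stromal, WT basal over WT luminal and WT basal over WT stromal, and 1 in WT luminal over WT stromal. Null groups have 1 array each on the positive and WT groups 1 each on the negative side, so these counts assume that a lone array varies like the other groups and say little about stability. Leaving out 1 array gave 1 to 3 in null basal over null stromal, 3 to 7 in null luminal over null stromal, 0 to 2 in WT basal over WT luminal, 1 to 14 in WT basal over WT stromal and 4 to 25 in WT luminal over WT stromal. The cause of these shifts was not tested. Dim probes (Rpl39l, Rpl3l, Rpl6, Rps15a) lie near background, which limits their changes.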
